A study of Mus musculus with 16 samples.

Results

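Frame-preserving skipped exons are cassette exons whose length is a multiple of 3, so that a transcript keeps the same reading frame whether the exon is spliced in or left out. They were taken from the authors' 3 deposited rMATS tables of splicing events, as the skipped-exon events whose exon is longer than 27 bases and divisible by 3. rMATS counts, for each event, the junction reads that include the exon and those that skip it, and from them an inclusion level from 0 (always skipped) to 1 (always included). Of 16502 such events, 12773 averaged 10 junction reads per library or more in each of the 2 groups of some comparison, out of 44842 events of all 5 rMATS types that did. These 12773 events concern 10579 distinct exons, because an exon is listed once for each pair of neighbouring exons it is seen with. The rule for members uses length and depth and no inclusion level, so their inclusion can be tested, but it was set with earlier results of these data known.

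The libraries came from the left ventricles of 16 mice of the Bl6J strain, males and females, in 4 groups of 4. Genotypes were wild type (WT) and homozygous P635L, in which the splicing factor RBM20 carries a missense mutation. All mice carried a virus: 1e12 viral genomes of AAV9 were given through the tail vein when a mouse was 4 weeks old, and the heart was taken 12 weeks later, at 16 weeks. The virus held the Tnpo3 cDNA (WT Tnpo3, P635L Tnpo3) or pCAG-iCre-T2A-eGFP as a control (WT Ctr, P635L Ctr), so that the control groups carry a Cre recombinase and a green fluorescent protein, and no group was left without virus. The sex of single mice is not given in the labels, and nothing in them says whether mice of a group were littermates.

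RBM20 is a muscle RNA-binding protein that sits in the nucleus on introns of heart transcripts and mostly keeps exons out. Titin (Ttn), the spring of the sarcomere, is its main target, and the calcium/calmodulin kinase gene Camk2d and the Z-disc gene Ldb3 are others. P635L lies in the arginine- and serine-rich stretch that transportin-3, the protein made from Tnpo3, recognises to carry such proteins into the nucleus. Because a skipped frame-preserving exon changes a protein without ending it, exons of this kind let the titin gene give stiffer and more compliant isoforms.

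The sequences below are the exons on which the results turn, read from the transcripts of GENCODE M21 (GRCm38), in which an exon was identified by its gene, its length and the lengths of both introns around it. Capitals mark the skipped exon. The 12 small letters on each side, where M21 has the exon between the same neighbours as the event, are the ends of those neighbouring exons; for Ttn exons A, B and C and the Nrap exon, which M21 has only between other neighbours, the exon alone is shown. The 4 Ttn exons are named A to D. Exon A is chr2:76678623-76678700, exon B chr2:76680650-76680724, exon C chr2:76692456-76692533 and exon D chr2:76632575-76632841, all on the minus strand of GRCm39, the build named in the submitters' processing notes and used for every position printed.
Camk2d exon of 60 bases: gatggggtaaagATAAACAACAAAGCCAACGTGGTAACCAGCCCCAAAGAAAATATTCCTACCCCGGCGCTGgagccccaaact
Ttn exon A: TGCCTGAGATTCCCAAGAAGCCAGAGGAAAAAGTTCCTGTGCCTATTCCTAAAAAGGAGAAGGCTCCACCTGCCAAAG
Ttn exon B: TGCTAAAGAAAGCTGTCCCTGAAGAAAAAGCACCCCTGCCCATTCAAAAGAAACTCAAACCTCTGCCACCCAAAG
Ttn exon C: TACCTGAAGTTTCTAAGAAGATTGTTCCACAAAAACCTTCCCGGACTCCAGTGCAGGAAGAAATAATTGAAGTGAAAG
Ttn exon D: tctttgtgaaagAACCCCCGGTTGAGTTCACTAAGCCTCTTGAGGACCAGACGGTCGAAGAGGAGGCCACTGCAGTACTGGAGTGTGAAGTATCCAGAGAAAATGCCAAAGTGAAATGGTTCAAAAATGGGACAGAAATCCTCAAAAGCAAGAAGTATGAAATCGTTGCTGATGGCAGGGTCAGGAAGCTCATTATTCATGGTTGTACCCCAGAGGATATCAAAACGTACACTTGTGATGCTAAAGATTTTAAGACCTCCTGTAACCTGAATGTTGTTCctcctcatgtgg
Arhgap10 exon of 66 bases: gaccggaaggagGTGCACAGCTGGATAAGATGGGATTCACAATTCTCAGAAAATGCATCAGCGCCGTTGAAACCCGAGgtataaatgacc
Ndrg2 exon of 42 bases: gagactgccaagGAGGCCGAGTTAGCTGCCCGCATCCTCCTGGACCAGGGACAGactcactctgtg
Tmem63b exon of 39 bases: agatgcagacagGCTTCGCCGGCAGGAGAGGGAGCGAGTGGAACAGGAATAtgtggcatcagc
Postn exon of 78 bases: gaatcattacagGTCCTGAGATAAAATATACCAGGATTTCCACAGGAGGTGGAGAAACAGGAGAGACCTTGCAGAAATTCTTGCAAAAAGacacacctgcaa
Tec exon of 66 bases: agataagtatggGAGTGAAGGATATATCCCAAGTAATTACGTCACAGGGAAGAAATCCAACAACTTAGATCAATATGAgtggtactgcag
Nrap exon of 108 bases: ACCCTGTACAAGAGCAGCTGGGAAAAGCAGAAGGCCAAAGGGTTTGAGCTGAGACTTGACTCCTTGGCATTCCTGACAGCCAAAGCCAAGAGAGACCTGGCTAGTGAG
All 11 lie wholly within coding sequence in M21. Exons A, B and C code for short stretches of the repetitive, proline-rich spring region of titin, where neighbouring exons resemble each other, so that reads of near-identical copies could be split between them. Exon D is longer.

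Some facts of the libraries touch the results. Gene count totals lay between 28493249 and 85922669 per library, and the junction reads over all members between 6684113 and 23608014. The Tnpo3 count was 41.6 to 49.4 CPM (counts divided by the library total and scaled, as edgeR gives them) in the control groups and 231 to 723 CPM in the Tnpo3 groups. A single gene, ENSMUSG00000119584, held 19.96% to 22.7% of the counts of 3 WT libraries and 0.703% to 5.30% of those of the others. Xist counts were above those of Y-linked genes in 3 of the 8 WT libraries and in 0 of the 8 P635L libraries, so sex is not balanced between the genotypes. The 6 cardiomyocyte markers were all detected and summed to 57131 to 67259 CPM in WT Ctr and 41178 to 44931 CPM in P635L Ctr, and the 4 fibroblast markers to 664 to 1039 CPM and 1170 to 1754 CPM. The cardiomyocyte sum was 44677.5 to 66187.2 CPM in WT Tnpo3 and 40716.8 to 50436.4 CPM in P635L Tnpo3. In bulk tissue, fewer cells of a type and less RNA per cell cannot be told apart. How the 4 libraries of a group are ordered in the rMATS tables is not stated, and single libraries are therefore named by the position at which the table lists them.

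Most frame-preserving exons were almost always included. Over the 6842 events with reads in all 4 groups, the mean inclusion level was at least 0.95 in 59.6% of events in WT Ctr, 60.8% in WT Tnpo3, 61.6% in P635L Ctr and 60.4% in P635L Tnpo3. Between 7.31% and 7.61% of the events were at 0.05 or below. The remaining 30.9% to 33.0% were mixed, and there the libraries of a group spread with a median SD of 0.0969 in WT Ctr and 0.0764 in P635L Ctr. For the typical exon the genotypes differed little: the median difference between P635L Ctr and WT Ctr was -0.0005 over 9645 events, and the median absolute difference was 0.0103.

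Between P635L Ctr and WT Ctr, the comparison that asks what the mutation does under the control virus, 36 of the 9645 events changed, 31 towards more inclusion and 5 towards less. They belong to 32 exons of 15 genes. Ttn alone holds 18 of the events, in 16 exons, all higher. Several of these Ttn events share both neighbouring exons, count the same skipping reads and are not independent. Camk2d, Arhgap10, Ndrg2, Tmem63b, Pcnt, Ppa2, Postn, Fez2 and Ldb3 gave the other rises, and Limch1, Hyi, Tec, Nrap and Gm20619 the falls. An event was called when edgeR's quasi-likelihood test on inclusion against skipping reads gave a Benjamini-Hochberg adjusted p under 0.05 over all 34810 events and the mean inclusion levels differed by at least 0.1. Over all events, Ttn included, 0.161% were called (0.121% higher, 0.0402% lower), against 0.373% of the frame-preserving ones. Outside Ttn, 0.188% of 9594 frame-preserving events were called. Also outside Ttn, the shares were 0.057% of frame-shifting exons, 0.976% of microexons and 0.056% of event types other than skipped exons. Of the frame-shifting exons, 8 of 14037 (0.057%) were called, and of the microexons of at most 27 bases, 4 of 410 (0.976%).

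The calls lay mostly at an end of the scale: 31 of the 36 called events had a group mean at 0.05 or below or at 0.95 or above, against 50 of the 141 events whose libraries did not overlap between the groups and differed by at least 0.1. Those 141 events are 1.46% of the members, beside 1.19% of all events, and 71 were higher and 70 lower in P635L Ctr (0.56% and 0.629% of all events). The authors' deposited table, at an rMATS FDR under 0.05 and the same difference, called 264 events, 119 higher and 145 lower, or 2.74% of the members beside 2.5% of all events (1.05% higher, 1.45% lower). Of the 36 edgeR calls, 33 were among them.

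**Figure D1:**
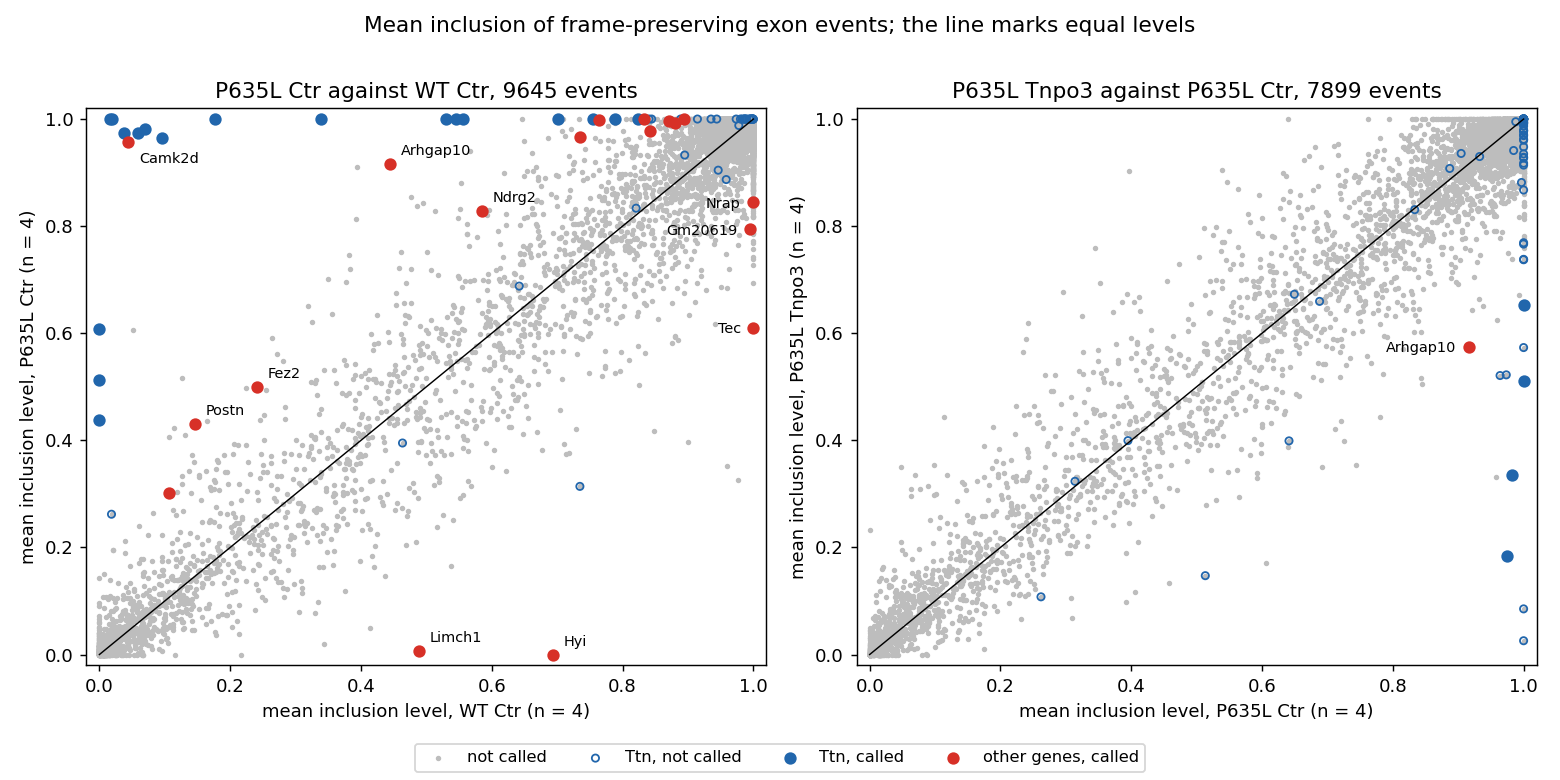
Mean inclusion level (0 to 1, n = 4 libraries) of every frame-preserving event with reads, P635L Ctr against WT Ctr on the left (9645 events) and P635L Tnpo3 against P635L Ctr on the right (7899 events); the line marks equal levels, large points are called events, and called genes are labelled except where both means are high. On the left the called Ttn events lie along the top and left edges, and Limch1 and Hyi lie at the bottom; on the right 4 Ttn events and Arhgap10 lie below the line.

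Titin showed the widest shift. In the WT Ctr hearts its frame-preserving exons spread over the whole scale, with a median inclusion of 0.889 over 51 events, and 1 event was at 1 in all 4 libraries. In P635L Ctr 34 of the 51 events were at 1 in all 4 libraries. The difference was above 0 in 46 events and below 0 in 5, with -0.421 as the lowest. The 16 called exons run from 76632575 to 76733970 on chromosome 2, are 69 to 564 bases long and rose by 0.177 to 0.983, with a median of 0.56 over the 18 events. In 3 of these events a WT Ctr library had no reads. Of the called exons, 4 are named here only for their stability, after their values were seen: the calls at 76669156, 76674549, 76686609 and 76733407 were lost in at least 1 of the fits that left out a library (adjusted p up to 0.247, 0.143, 0.0558 and 0.0613), the last 2 without P635L Ctr position 3. The Ttn gene itself was not called changed (log2 fold change -0.92, edgeR adjusted p 0.311): its counts were 1705, 7572, 2261 and 9422 CPM in WT Ctr, with both high values in libraries rich in ENSMUSG00000119584, and 2297 to 4119 CPM in P635L Ctr.

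Exon A of Ttn was nearly absent in WT Ctr and nearly always present in P635L Ctr. Its inclusion levels were 0, 0.051, 0 and 0.1 in WT Ctr, 0, 0, 1 and 0.087 in WT Tnpo3, 1, 1, 0.898 and 1 in P635L Ctr, and 0.283, 0.18, 0.19 and 0.083 in P635L Tnpo3. The 2 control groups did not overlap, and the WT Tnpo3 library at listed position 3 stood at 1 while the other 3 were below 0.1, with 18.8 junction reads per library in that group. The rise between the control groups was 0.937 (edgeR adjusted p 3.59e-07).

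Exon B, which lies next upstream in the transcript among the measured exons of that stretch, was also lowest in WT Ctr and highest in P635L Ctr. It was included at 0, 0.061, 0.129 and 0.088 in WT Ctr, at 0.284, 0 and 0.115 in the 3 WT Tnpo3 libraries with reads, at 1, 1, 0.927 and 1 in P635L Ctr, and at 0.332, 0.373, 0.275 and 0.364 in P635L Tnpo3. All P635L Ctr libraries were above all others, and the P635L Tnpo3 libraries lay between 0.275 and 0.373. The rise was 0.912 (edgeR adjusted p 3.18e-08). The events of A and B have the same neighbouring exons, so both count the same skipping junction and are not independent. The same holds for called events of the Ttn exons at 76669156, 76670577 and 76674549. It also holds for those at 76651460 and 76657339, and for another event of 76670577 with that of 76671434.

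Exons C and D fall outside the rule for naming and were chosen after their values were seen, since the interaction test called them. Exon C was included at 0.157, 0.177, 0.149 and 0.226 in WT Ctr, 0.313, 0.369, 0.45 and 0.108 in WT Tnpo3, 1 in all 4 P635L Ctr libraries and 0.498, 0.448, 0.548 and 0.552 in P635L Tnpo3. With 320 junction reads and none that skipped it in P635L Ctr, up to 0.938% of reads could have done so. Exon D was included at 0.3, 0.418, 0.297 and 0.338 in WT Ctr, 0.517, 0.612, 0.382 and 0.297 in WT Tnpo3, 1 in all 4 P635L Ctr libraries and 0.682, 0.821, 0.465 and 0.643 in P635L Tnpo3. For both, P635L Ctr was apart from every library of the other groups, and the rise over WT Ctr was 0.823 for exon C and 0.662 for exon D (edgeR adjusted p 2.50e-09 for each).

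The 300-base Ttn exon at chr2:76671434-76671733 had the largest rise among those named by rule, 0.980, on few reads. It was at 1 in all 4 P635L Ctr libraries, at 0, 0 and 0.059 in the 3 WT Ctr libraries with reads, and at 0.032, 0, 0.071 and 0 in P635L Tnpo3, with 13.5 to 15 junction reads per library. The edgeR adjusted p against WT Ctr was 0.000871, while the authors' deposited table gave it an FDR of 1. A WT Ctr library without reads enters the fit with no weight.

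**Figure D2:**
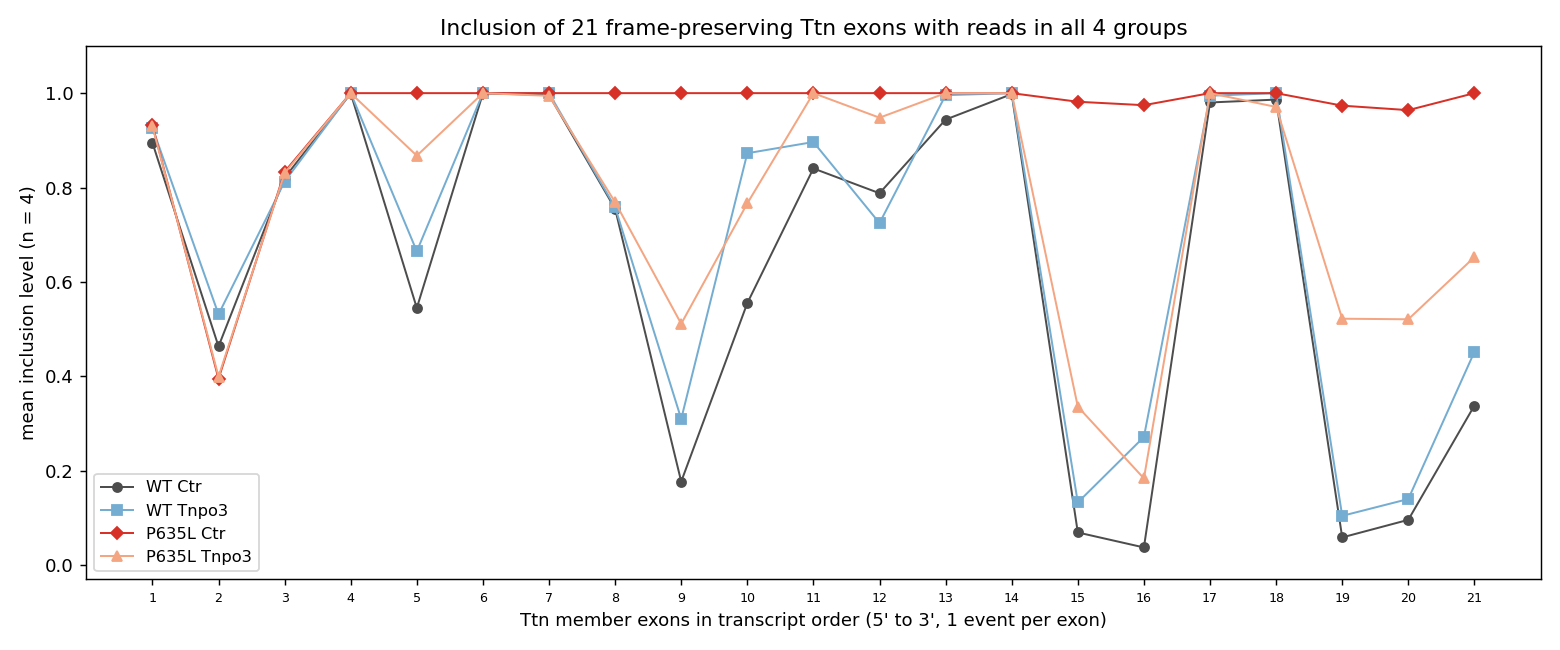
Mean inclusion level (0 to 1, n = 4 libraries per group, or those with reads) of 21 frame-preserving Ttn exons with reads in all 4 groups, in transcript order with 1 event per exon; lines join the exons of a group only to guide the eye. P635L Ctr stays near 1 from the fourth exon on, where the other groups drop at several exons, and exons 9, 15, 16 and 21 are C, B, A and D.

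Other Ttn exons were not called. The first 3 exons in that plot, near the start of the transcript, differed little between groups: the exon at 76795435 had means of 0.464 in WT Ctr, 0.532 in WT Tnpo3, 0.395 in P635L Ctr and 0.4 in P635L Tnpo3. Exons that were included in nearly every WT Ctr transcript, such as the one at 76769388 (mean 1.00 in WT Ctr and 1 in P635L Ctr), were already at or near the top of the scale.

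Camk2d encodes the delta chain of calcium/calmodulin-dependent kinase II, which sets calcium cycling in cardiomyocytes. Its 60-base exon, chr3:126599506-126599565, was included at 0, 0.045, 0.061 and 0.071 in WT Ctr, 0.081, 0.148, 0 and 0.146 in WT Tnpo3, 1, 1, 1 and 0.831 in P635L Ctr, and 0.372, 0.122, 0.587 and 0.244 in P635L Tnpo3. The WT groups overlapped near 0, P635L Ctr was above every other library, and the P635L Tnpo3 libraries were all above WT Ctr, with the lowest among the WT Tnpo3 values. Inclusion rose from 0.0443 ± 0.0314 in WT Ctr to 0.958 ± 0.0845 in P635L Ctr (SD, n = 4; edgeR adjusted p 7.50e-06), on 27 and 44 junction reads per library. The Camk2d gene count was not called (log2 fold change -0.07, edgeR adjusted p 0.753).

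Arhgap10 encodes a GTPase-activating protein. Its 66-base exon, chr8:78109354-78109419 on the minus strand, stood at 0.495, 0.537, 0.376 and 0.37 in WT Ctr, 0.332, 0.387, 0.49 and 0.311 in WT Tnpo3, 0.882, 0.905, 0.936 and 0.944 in P635L Ctr, and 0.569, 0.547, 0.56 and 0.622 in P635L Tnpo3. All 4 P635L Tnpo3 libraries lay above all WT libraries and below all P635L Ctr libraries. The rise between the control groups was 0.472 (edgeR adjusted p 1.04e-05).

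Ndrg2, a gene of the N-myc downstream-regulated family, has a 42-base exon at chr14:52148543-52148584. It was read deeply, with 1272 to 3030 junction reads per library in the control groups, and stood at 0.518, 0.622, 0.585 and 0.616 in WT Ctr, 0.815, 0.784, 0.884 and 0.828 in P635L Ctr and 0.747, 0.604, 0.707 and 0.658 in P635L Tnpo3. The 2 control groups did not overlap and the WT Tnpo3 mean, 0.589, was close to that of WT Ctr, 0.585. The rise was 0.243 (edgeR adjusted p 0.0014).

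Several exons that were mostly included in WT Ctr reached 1 or nearly so in P635L Ctr. The 39-base exon of Tmem63b, which encodes a mechanosensitive ion channel, went from 0.733, 0.845, 0.717 and 0.758 to 1, 1, 1 and 0.99 (edgeR adjusted p 0.000164). The 174-base exon of Pcnt, the centrosome scaffold pericentrin, at chr10:76203142-76203315, went from 0.77, 0.956, 0.86 and 0.746 to 1 in all 4 libraries (edgeR adjusted p 9.19e-05). In P635L Tnpo3, Tmem63b stood at 1, 0.804, 0.985 and 0.974 and Pcnt at 0.965, 0.789, 0.828 and 0.929, so that Pcnt overlapped WT Ctr there and Tmem63b overlapped both control groups. Ppa2, a mitochondrial pyrophosphatase, was looked at after its values were seen: its 54-base exon at chr3:133032409-133032462 rose from 0.936, 0.881, 0.88 and 0.876 to 1, 0.998, 1 and 1 (edgeR adjusted p 2.48e-08), and stood at 0.883, 0.887, 0.926 and 0.977 in P635L Tnpo3.

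Ldb3, also called Cypher or ZASP, ties alpha-actinin into the Z-disc. Its 204-base exon, chr14:34293675-34293878, was called in 1 event, from 0.86, 0.8, 0.929 and 0.929 in WT Ctr to 0.995, 0.981, 0.993 and 1 in P635L Ctr (edgeR adjusted p 0.0277). That call was lost without WT Ctr position 1 or 2 (adjusted p up to 0.174), and the event of that exon with most reads went from 0.930 to 0.992 with an edgeR adjusted p of 0.251. The P635L Ctr libraries gave 1088 junction reads each for the called event and the WT Ctr libraries 52.8, and the Ldb3 gene count was not called (log2 fold change 0.17, edgeR adjusted p 0.576).

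**Figure D3:**
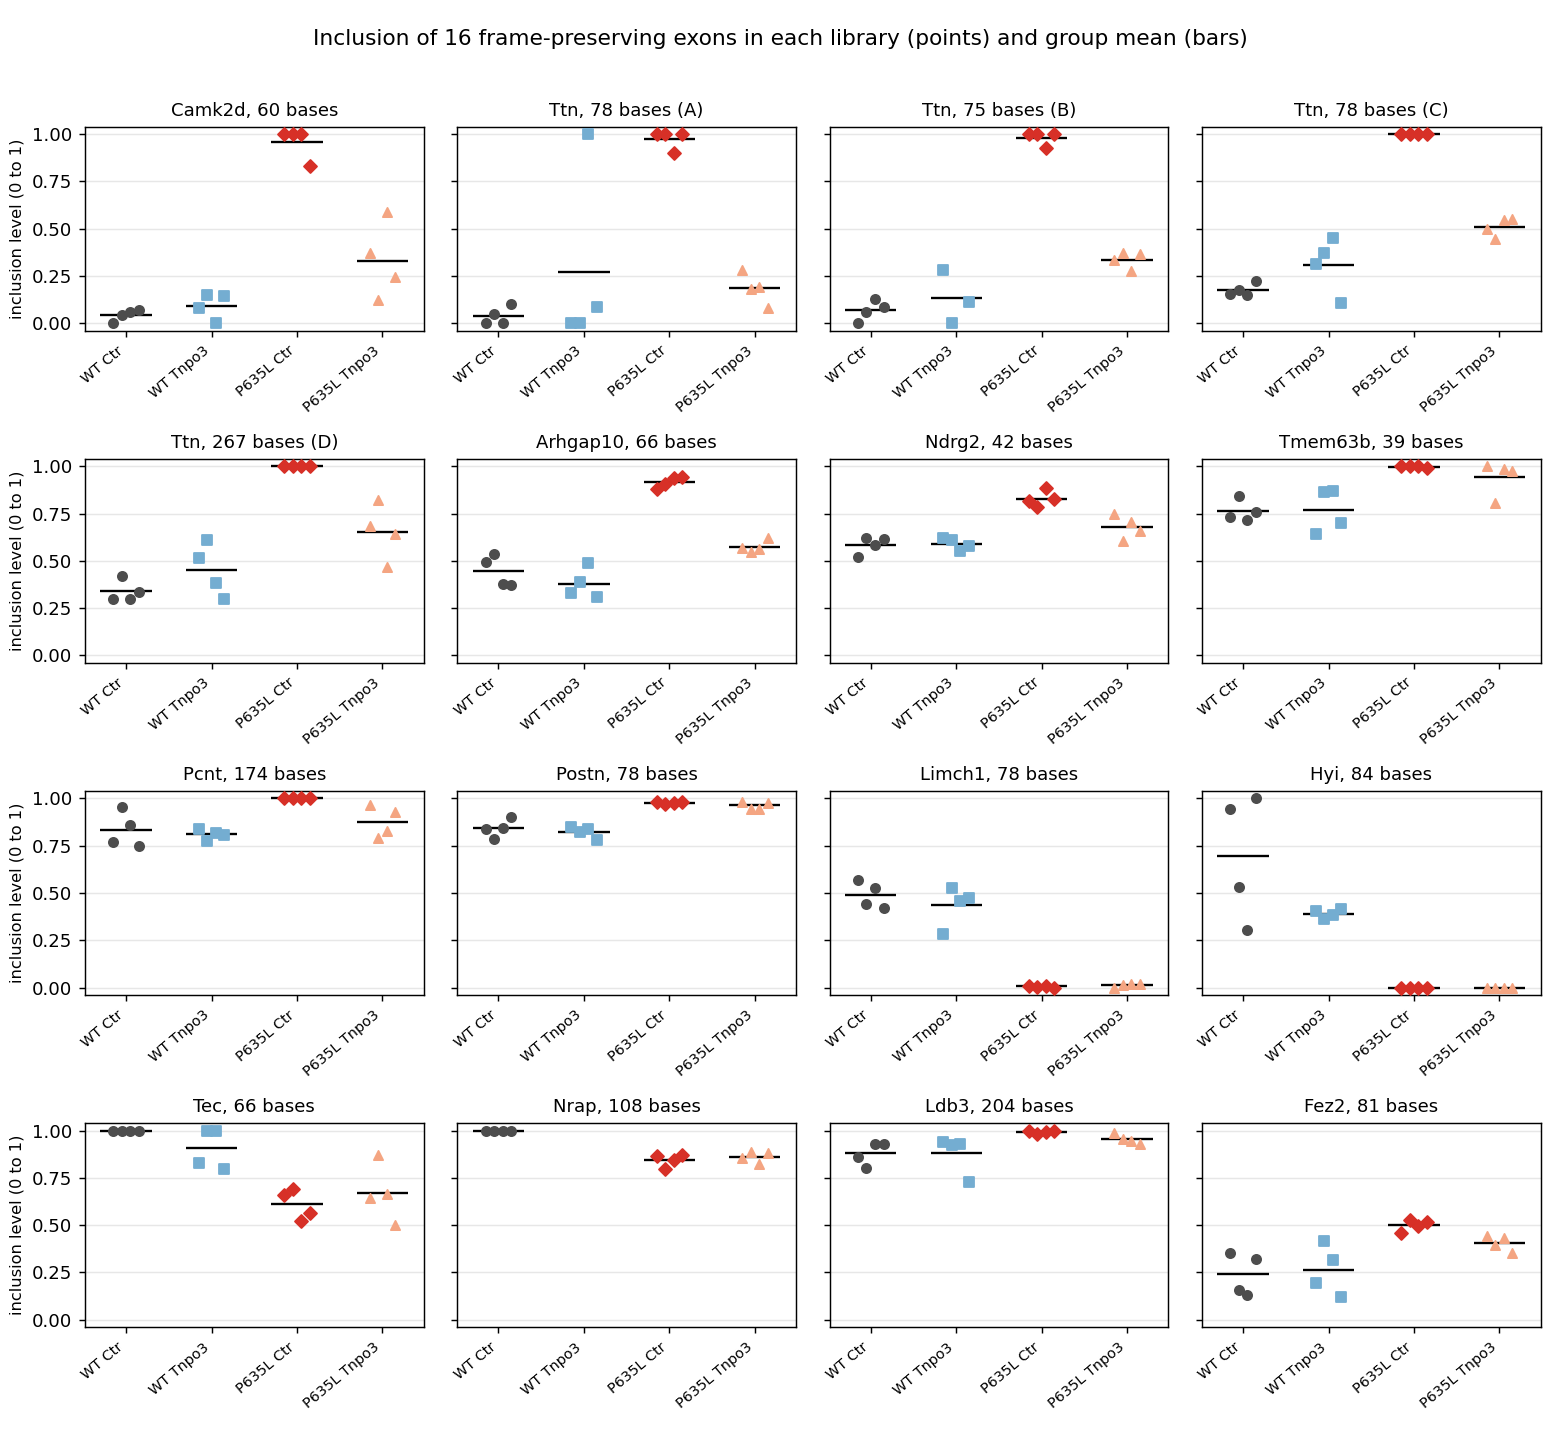
Inclusion level (0 to 1) of 16 frame-preserving exons in each library (points) with the group mean (bars), by group; Nrap has no WT Tnpo3 points and a library without reads has no point. In Camk2d, Ttn A to D and Arhgap10 all P635L Ctr points lie above the P635L Tnpo3 points, while in Limch1, Hyi and Nrap the points of both P635L groups lie together.

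Postn encodes periostin, a matrix protein that activated fibroblasts secrete, and 3 of its exons, which sit in the alternatively spliced end of the protein, rose. The 78-base exon at chr3:54292629-54292706 went from 0.837, 0.784, 0.844 and 0.9 in WT Ctr to 0.981, 0.972, 0.978 and 0.979 in P635L Ctr (edgeR adjusted p 4.81e-05) and stood at 0.983, 0.944, 0.945 and 0.978 in P635L Tnpo3, where all libraries were also above WT Ctr. The 81-base exon at 54287833 rose from a mean of 0.147 to 0.431 and the 84-base exon at 54293092 from 0.106 to 0.302 (edgeR adjusted p 0.0275 and 0.0337). Both of these calls were lost without WT Ctr position 1 or P635L Ctr position 1, the former also without P635L Ctr position 4, and the latter also without WT Ctr position 4 or P635L Ctr position 2 (adjusted p up to 0.170 and 0.179). The Postn gene count was higher in P635L Ctr by a log2 fold change of 2.00 (edgeR adjusted p 0.0107), a call lost without the libraries rich in ENSMUSG00000119584 (0.137) or with more Xist (0.0582). All 4 fibroblast markers were detected and their sum was higher in P635L Ctr, as given above, than the 740 to 871 CPM of WT Tnpo3 and the 786 to 1098 CPM of P635L Tnpo3. Their part in the Postn result was not tested.

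Fez2, which encodes an adaptor of kinesin transport, has an 81-base exon at chr17:78694420-78694500 that stood at 0.355, 0.155, 0.132 and 0.32 in WT Ctr and 0.458, 0.525, 0.498 and 0.518 in P635L Ctr. The groups did not overlap, but the call (edgeR adjusted p 0.0387) was lost without WT Ctr position 2 or 3, with adjusted p up to 0.185. The P635L Tnpo3 libraries stood at 0.445, 0.397, 0.431 and 0.354. A second event of that exon went from 0.870 to 0.996 (edgeR adjusted p 0.0266, and 0.481 without WT Ctr position 3).

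The 5 exons that fell between the control groups were not in known RBM20 target genes of the list used here. Limch1 encodes an actin-bound activator of non-muscle myosin. Its 78-base exon, chr5:67193369-67193446, stood at 0.568, 0.442, 0.526 and 0.419 in WT Ctr, 0.283, 0.527, 0.459 and 0.474 in WT Tnpo3, 0.009, 0.004, 0.011 and 0 in P635L Ctr, and 0, 0.012, 0.018 and 0.017 in P635L Tnpo3. The WT libraries were all at 0.283 or above and all 8 P635L libraries at 0.018 or below, whichever virus they received. The fall was -0.483 in P635L Ctr and -0.477 in P635L Tnpo3 (edgeR adjusted p 1.17e-07 and 1.96e-09), both against the same WT Ctr libraries.

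Hyi, which encodes hydroxypyruvate isomerase, has an 84-base exon at chr4:118217503-118217586 that lies 74 bases after the exon before it and is not wholly coding in M21. It was included at 0.943, 0.531, 0.302 and 1 in WT Ctr and 0.405, 0.362, 0.384 and 0.415 in WT Tnpo3, and at 0 in all 8 P635L libraries. The WT Ctr libraries were far apart on 18.8 junction reads each, and none was as low as 0. The reads allow inclusion reads of up to 1.14% in P635L Ctr and 2.17% in P635L Tnpo3, an allowance for counting error only. The edgeR adjusted p was 1.17e-05 for P635L Ctr and 1.87e-06 for P635L Tnpo3.

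Tec encodes a non-receptor tyrosine kinase. Its 66-base exon, chr5:72936764-72936829, was at 1 in all 4 WT Ctr libraries, at 0.827, 1, 1 and 0.798 in WT Tnpo3, at 0.66, 0.693, 0.524 and 0.564 in P635L Ctr and at 0.646, 0.87, 0.667 and 0.5 in P635L Tnpo3. P635L Ctr lay below every WT library, and P635L Tnpo3 overlapped WT Tnpo3. The fall was -0.39 in P635L Ctr (edgeR adjusted p 0.00091).

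The last 2 falls lie outside the naming rule and were looked at after their values were seen. Nrap encodes a nebulin-related anchoring protein of the intercalated disc, and its 108-base exon at chr19:56342552-56342659 was at 1 in all 4 WT Ctr libraries, at 0.864, 0.799, 0.845 and 0.87 in P635L Ctr and at 0.853, 0.884, 0.825 and 0.881 in P635L Tnpo3. Both P635L groups were below WT Ctr and overlapped each other (edgeR adjusted p 5.29e-07 and 9.54e-09 against the same WT Ctr libraries), and the WT Tnpo3 table does not list the event. Nrap lies 2.45 Mb from Rbm20 on chromosome 19, so an effect of the mutation and a difference carried along on that stretch of the chromosome cannot be told apart. The 147-base exon of the noncoding gene Gm20619 at chr6:6315208-6315354 was at 1, 0.55, 0.875 and 0.75 in P635L Ctr and at 0.979 to 1 in WT Ctr (edgeR adjusted p 0.0498), with overlap between the groups, and its call was lost in 5 of 8 fits that left out 1 library (adjusted p up to 0.219).

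In the mutant hearts, the comparison of the Tnpo3 virus with the control virus called 5 of 7899 events, all lower in P635L Tnpo3: exons A, B, C and D of Ttn and the Arhgap10 exon. Over all events, 0.0205% were called in this comparison (0.00341% higher, 0.0171% lower). Inclusion fell from 0.975 ± 0.051 to 0.184 ± 0.0818 for exon A (edgeR adjusted p 0.0143), from 0.982 ± 0.0365 to 0.336 ± 0.0443 for exon B (0.0143), from 1 to 0.512 ± 0.0489 for exon C (0.0137), from 1 to 0.653 ± 0.147 for exon D (0.0292), and from 0.917 ± 0.0286 to 0.575 ± 0.0329 for Arhgap10 (0.0143; SD, n = 4 each). In none of the 5 did the libraries of the 2 groups overlap. The calls rest on few libraries: without P635L Tnpo3 position 1, 0 events were called, with adjusted p of 0.0633 for exons A, B and C. Exon C was also lost without P635L Ctr position 3, exon D without that library or P635L Tnpo3 position 4 (adjusted p up to 0.170), and Arhgap10 without P635L Ctr position 3 or P635L Tnpo3 position 2 (up to 0.0723).

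Other exons gave large differences between the mutant groups that did not pass the test. Camk2d inclusion was 0.958 in P635L Ctr and 0.331 in P635L Tnpo3, a difference of -0.627 (edgeR adjusted p 0.211), although the libraries did not overlap. The Ttn exon at 76671434 differed by -0.974 (edgeR adjusted p 0.0676), and the Pcnt exon by -0.122 (edgeR adjusted p 0.125). Ppa2 differed by -0.0813 with an edgeR adjusted p of 0.0137, under the difference of 0.1 that a call requires. In all, 91 member events had non-overlapping libraries and a difference of at least 0.1, 42 higher and 49 lower in P635L Tnpo3, or 1.15% of the members beside 1.3% of all events (0.737% higher, 0.56% lower). Of the exons that fell in P635L Ctr, Limch1 differed by 0.00575 between the mutant groups (edgeR adjusted p 0.915), and Hyi was at 0 in both.

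Whether the difference between the viruses was the same in both genotypes was tested as an interaction, which called 2 of 6842 members, beside 0.00787% of all events. They were Ttn exon C, at -0.621 (edgeR adjusted p 0.00546), and exon D, at -0.461 (0.00584). In exon C the virus went with a difference of 0.133 in WT hearts and -0.488 in P635L hearts, and in exon D with 0.114 and -0.347. Both calls held in each of 16 fits that left out 1 library, with adjusted p up to 0.0305 and 0.0442. Exon A, at -1.02, had an edgeR adjusted p of 0.249, and Camk2d, at -0.676, one of 0.386.

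Against WT Ctr, 7 of 9501 events were called in P635L Tnpo3 (3 higher, 4 lower), where 0.0346% of all events were called (0.0144% higher, 0.0202% lower). Of the 36 events called in P635L Ctr, 34 were tested here and 6 were called again. The 4 lower ones were Limch1, Hyi, Nrap and Tec, given above, and the Tec call (edgeR adjusted p 0.00599) was lost without P635L Tnpo3 position 4 or WT Ctr position 2 or 3 (up to 0.12). The higher ones were the 78-base Postn exon (edgeR adjusted p 0.00353, and 0.193 without P635L Tnpo3 position 4), an event of the 84-base Postn exon that was not tested in P635L Ctr and went from 0.155, 0.221, 0.395 and 0.294 to 0.828, 0.687, 0.596 and 0.908 (0.00805, and up to 0.487 without that library or WT Ctr position 1), and an event of Fez2 that went from 0.870 to 0.999 (0.00805, and up to 0.527 in the 4 of 8 fits that lost it). None of the 89 Ttn events was called. Exon A differed from WT Ctr by 0.146 (edgeR adjusted p 0.664), exon C by 0.334 (0.195) and Camk2d by 0.287 (0.548). The authors' deposited table did call these exons, with an rMATS FDR of 0.00348 for exon A and 0.000135 for Camk2d. For exon C it lists 0. It called 8 Ttn events here, all higher, and 147 member events in all (67 higher, 80 lower). These stand beside 2.11% of all events by that rule (1.11% higher, 0.996% lower). Non-overlapping libraries with a difference of at least 0.1 were found in 74 members, beside 0.956% of all events (0.514% higher, 0.442% lower). This comparison and the one of P635L Ctr share their WT Ctr libraries.

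In WT hearts the Tnpo3 virus gave no called event among 8916 members or among all 31883 events (0.0%). By edgeR, 624 members had an unadjusted p under 0.05, and limma, DESeq2 and a quasi-binomial test, which models the share of including reads in each library, called 0 as well. The authors' deposited table called 91 members, 42 higher and 49 lower, beside 0.928% of all events (0.43% higher, 0.499% lower). The libraries of 29 of them did not overlap, and 45 members in all had non-overlapping libraries with a difference of at least 0.1, beside 0.405% of all events (0.207% higher, 0.198% lower). Among Ttn's 83 events it called 0.

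The RBM20 targets known from earlier work were taken as a list of 36 genes, chosen with earlier results of these data known. Of these, 32 had members, with 370 events, of which 20 rose and 0 fell between the control groups, beside 0.121% and 0.0402% of all events: 18 in Ttn, 1 in Camk2d and 1 in Ldb3. Their median difference was 0.00075, beside -0.0005 over all members, and their median absolute difference 0.011, beside 0.0103. The authors' deposited table called 31 higher and 8 lower, or 14 and 8 of the 319 events outside Ttn, beside 1.05% higher and 1.45% lower over all events by that rule. Ryr2, the calcium release channel, is an example without a call, picked after its values were seen: its 36-base exon was at 0.959 in WT Ctr and 0.965 in P635L Ctr (edgeR adjusted p 0.763). The 1545-base exon of Mlip, a lamin-interacting muscle protein, was at 0.283, 0.101, 0.359 and 0.556 in WT Ctr and 0.737, 0.465, 0.511 and 0.774 in P635L Ctr, and these overlapping values did not pass (edgeR adjusted p 0.543).

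Triadin (Trdn), which anchors calsequestrin to the calcium release channel, was looked at after its values were seen. Its 48-base exon at chr10:33219072-33219119 stood at 0.757, 0.718, 0.787 and 0.774 in WT Ctr, 0.794, 0.781, 0.78 and 0.752 in WT Tnpo3, 0.626, 0.629, 0.649 and 0.615 in P635L Ctr, and 0.743, 0.765, 0.766 and 0.712 in P635L Tnpo3. All P635L Ctr libraries lay below every other library, on a mean of 1094 junction reads per library in WT Ctr and 1685 in P635L Ctr. The difference of -0.129 had an edgeR adjusted p of 0.563, while the quasi-binomial test and the authors' deposited table called it.

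Of 40 sarcomere and Z-disc genes, 27 had members, with 229 events, of which 19 rose and 0 fell, 18 of them in Ttn, beside 0.121% higher and 0.0402% lower over all events. Outside Ttn the authors' deposited table called 1 higher and 7 lower of 178, beside 1.05% and 1.45% over all events. Nebl, which encodes the Z-disc protein nebulette, was at 0.494, 0.624, 0.582 and 0.667 in WT Ctr, 0.458, 0.358, 0.384 and 0.377 in P635L Ctr and 0.577, 0.772, 0.858 and 0.488 in P635L Tnpo3 for its 105-base exon (edgeR adjusted p 0.663 between the control groups). The 138-base exon of Xirp2, an actin-binding protein of the intercalated disc, had means of 0.896 and 0.698 (edgeR adjusted p 0.647). The 69-base exon of Smtn had means of 0.856 and 0.730 (edgeR adjusted p 0.633). Smtn encodes smoothelin, a smooth muscle protein that the list also holds. In these 3 genes the mean was lower in P635L Ctr, and only the libraries of Nebl and Smtn did not overlap.

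Of 39 genes of calcium handling and ion channels, 21 had 108 member events, of which 1 rose (Camk2d) and 0 fell, and this and the next 3 counts stand beside 0.121% higher and 0.0402% lower over all events. The 75-base exon of Cacna1c, the L-type calcium channel, had means of 0.474 and 0.311 in the control groups (edgeR adjusted p 0.678), and the 33-base exon of Camk2g 0.516 and 0.239 (0.66). Of 52 cytoskeletal and adhesion genes, 40 had 242 events, with 0 higher and 1 lower (Limch1). Of 52 splicing and RNA-binding genes, 39 had 88 events and 0 calls. Of 41 kinase and signalling genes, 33 had 113 events and 1 rise, again Camk2d. The median differences of these 4 lists lay between -0.0015 and -0.000375, beside -0.0005 over all members.

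The 36 called events were read against all 9645 for further properties. Of these, exon length also enters the rule for members. The median exon length was 81 bases among those called and 111 among all, and the median of the flanking introns 2850 and 1788.5 bases. Their median inclusion in WT Ctr was 0.537, or 0.749 for the 18 outside Ttn, beside 0.99 over all. This contrast is partly set by the call, which uses the WT Ctr level. An exon at 0.95 or above in WT Ctr, as 67.5% of all members were, cannot rise by 0.1. Of all members, 7972 had a transcript of the same structure in M21 and 6303 of those (79.1%) were wholly coding. Only these 6303 were checked for a stop codon in frame, which annotated coding sequence scarcely allows, and none had one. Among the called events, 17 were matched with the same neighbours and 15 of those (88.2%) were wholly coding. At the edge of the choice, events with 10 to under 11 reads had a median absolute difference of 0.0585 (188 events) and those with 9 to under 10, outside it, 0.0674 (174 events). Exons of 30 bases, inside, had 0.011 (92 events) and exons of 27 bases, outside, 0.029 (57 events).

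The gene counts of the host genes were tested with edgeR over all 18662 genes (adjusted p under 0.05), of which 14.2% were called between the control groups (7.07% higher, 7.14% lower). Of 4684 tested host genes of members, 732 changed, 369 higher and 363 lower. Of the 15 host genes of called exons, 4 were higher (Postn, Hyi, Fez2 and Nrap) and 3 lower (Gm20619, Limch1 and Tmem63b). Fez2 rose by a log2 fold change of 1.00 (edgeR adjusted p 0.00285) and Hyi by 1.14 (0.00801, but 0.0935 without the libraries rich in ENSMUSG00000119584). Gm20619 fell by 1.60 (edgeR adjusted p 6.28e-05) and Limch1 by 0.63 (0.00251). Tmem63b, at -0.60 (edgeR adjusted p 0.0103), lost its call without WT Ctr replicate 2 (0.0502) or without the libraries rich in ENSMUSG00000119584 (0.144). The other 8 host genes, Ttn, Camk2d, Arhgap10 and Ldb3 among them, were not called. Between the mutant groups, 3.88% of all genes (1.63% higher, 2.25% lower) and 182 host genes (67 higher, 115 lower) were called, among them Nrap at -0.78 (edgeR adjusted p 0.00151) and Gm20619 at 1.05 (0.0101), while Ttn (-0.16) and Arhgap10 (-0.30) were not (edgeR adjusted p 0.923 and 0.145). Against WT Ctr, 147 host genes were called in P635L Tnpo3 (71 higher, 76 lower), beside 3.07% of all genes (1.49% higher, 1.58% lower), and 1 in WT Tnpo3 (0.00536% of all genes).

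**Figure D4:**
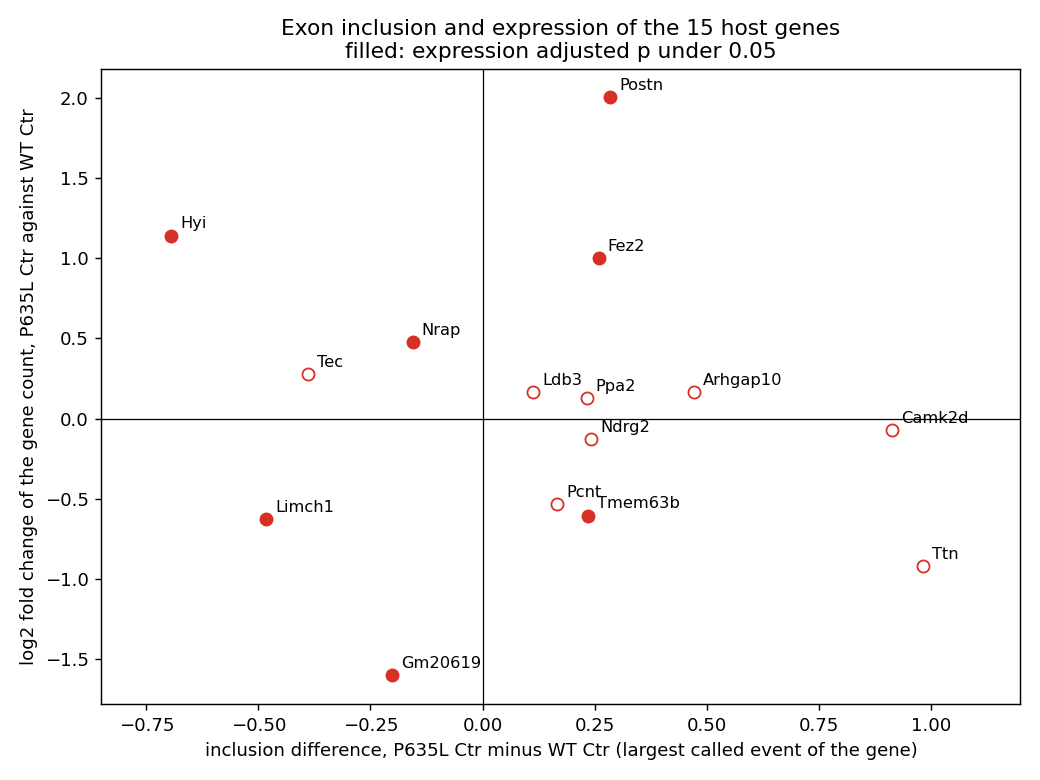
Largest called inclusion difference (P635L Ctr minus WT Ctr, x axis, 0 to 1 scale) against the log2 fold change of the gene count (y axis) for the 15 host genes of called exons; filled points passed the expression test. Ttn and Camk2d, at the right, have open points, and the filled points are spread over both sides of both axes.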

How the data were processed

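Poly(A) RNA of left ventricles from 16 mice, 4 per group, was sequenced with a stranded kit, per the labels. Reads were aligned with STAR 2.7.9a to GRCm39 and counted with featureCounts 2.0.6, and DESeq2 is named too, per the submitters' processing notes. The rMATS version, annotation and strand setting are not given in the sources used here. The authors deposited raw read counts per gene and 3 rMATS tables, each against WT Ctr, with inclusion and skipping junction reads (counts, 4 libraries to a cell), inclusion levels as a fraction from 0 to 1, and p-values with FDR. The WT Ctr reads are the same in all 3 tables; P635L Tnpo3 against P635L Ctr and the interaction were obtained by joining tables on identical coordinates.

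The members and gene lists were chosen with earlier results of these data known. Events of all 5 types averaging 10 or more junction reads per library in each group were tested with edgeR 4.0.16 (R 4.3.3; quasi-likelihood, a term per library and an inclusion term per group, Benjamini-Hochberg over all events). Called means adjusted p under 0.05 and a difference of mean inclusion of at least 0.1. Gene counts of 18662 genes were tested with edgeR in 1 fit of all 16 libraries. Alternatives were DESeq2 1.42.0, limma 3.58.1 (log2 ratios, pseudocount 0.5), the rMATS FDR, read minimums of 1 and 20, a difference of 0.2, 1 event per exon, all 16 libraries in 1 fit, leaving out each library and, added after seeing the data, a quasi-binomial test and, for gene counts, fits without libraries that stand apart. A result on 1 gene is not reported here. The tests were tested on simulated data, whose spread between libraries was taken from the real reads after a first version. There the edgeR test of inclusion found only a minority of the changes made and the quasi-binomial test more, so that a missing call does not show that an exon did not change. With 1 event per exon, that with most reads, the rule named the called, non-overlapping exons with the 10 largest rises and the 10 largest falls in P635L Ctr against WT Ctr and 5 and 5 in the other comparisons, at most 2 per gene in each list, the most changed exon of each RBM20 target gene with a call, and up to 4 examples of the other lists. Nothing in the labels says that libraries of a group came from separate litters, so p-values measure the spread between these 4 mice. Limits from a count of 0 take 3 reads and cover counting error only.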

Additional observations from a re-analysis of the deposited data

Results flagged for a closer look

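For the exons picked by the naming rule, 56 groups of 4 libraries were checked. In 6 cases a single library lay far from the other 3, by a gap above Dixon's critical value for 4 values. Chance flags about 1 in 20 such groups. Exons looked at after their values were seen, such as Ppa2 and Gm20619, and second events of an exon were not part of this check. The Camk2d exon stood at 0.831 in P635L Ctr position 4 and at 1 in the other 3 libraries. Ttn exon A stood at 1 in WT Tnpo3 position 3, where the others lay between 0 and 0.087, and at 0.898 in P635L Ctr position 3, where the others were at 1. Ttn exon B stood at 0.927 in that same P635L Ctr library, against 1 in the others. The Tmem63b exon stood at 0.99 in P635L Ctr position 4, against 1 in the others, and at 0.804 in P635L Tnpo3 position 2, against 0.974 to 1. Where 3 libraries are at the end of the scale, any other value is far from them by this measure.

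The effect of the Tnpo3 virus on inclusion differed between the genotypes by the edgeR test of the interaction in 2 Ttn exons, at -0.621 for exon C and -0.461 for exon D.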

How the results depend on the processing

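Of 726 values of called member events under the alternatives, 624 kept their call, the rest lost it and 0 reversed. Of 165 values of the called host genes of such exons, 142 kept it, 23 lost it and 0 reversed. For P635L Ctr against WT Ctr, 36 calls became 264 by the rMATS FDR, 22 with at least 20 junction reads, 17 with limma and 23 with all 16 libraries in the fit, and the split of 31 higher and 5 lower became 29 and 7 with DESeq2 and 34 and 20 with the quasi-binomial test (54 calls). For P635L Tnpo3 against WT Ctr, 7 became 4 at a difference of 0.2 or with 1 event per exon, 12 with no minimum difference, 147 by the rMATS FDR, 2 with limma or all 16 libraries and 13 with the quasi-binomial test. For WT Tnpo3, 0 became 91 by the rMATS FDR. Between the mutant groups, 5 became 11 with at least 1 read, 8 with limma, 19 with DESeq2 and 36 with the quasi-binomial test, and the interaction's 2 became 4 with limma and 6 with DESeq2. Leaving out each library in turn gave 26 to 39, 4 to 8, 0 to 0, 0 to 6 and 2 to 3 calls in these 5 comparisons; the 7 fell to 4 without P635L Tnpo3 position 4, and the 5 to 2 without P635L Ctr position 3. The cause was not tested.

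Host gene counts gave 497 to 719, 62 to 196, 1 to 1 and 70 to 148 changed genes when each library was left out. Against WT Ctr, 147 in P635L Tnpo3 became 298 with DESeq2, 73 without the libraries rich in ENSMUSG00000119584, 81 and 62 without P635L Tnpo3 replicate 2 or 4 and 79 without WT Ctr replicate 2, and the 1 in WT Tnpo3 became 0 without those rich libraries or those with more Xist. Between the mutant groups, 182 became 366 with DESeq2, 373 without the libraries with more Xist, 429 without the rich ones, 860 with only the 2 groups in the fit, and 70 to 107 without P635L Ctr replicate 1, 2 or 4 or P635L Tnpo3 replicate 1, 2 or 3. A fit of the gene counts with the replicate number as a block gave 700, 123, 1 and 167. In P635L Tnpo3 against WT Ctr that block fit lost the calls of Hyi (adjusted p 0.0617) and Limch1 (0.0592). Whether the numbers pair the libraries cannot be decided from this, as no value for chance stands beside the counts. Of 24 pairs with the same number, 6 correlated above 0.1 (from -0.31 to 0.62), and 7 of 16 libraries correlated best with their own number. The pairs of WT Ctr and WT Tnpo3 stood at 0.0766, 0.258, 0.4 and 0.62, and those of WT Ctr and P635L Tnpo3 at -0.282, -0.197, 0.0208 and -0.234. No paired analysis was made for the junction reads because the order of the libraries in the tables is not stated. Read depth by listed position was not used to infer it.

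Depth limits the exons with 10 to 20 junction reads per library, where 1 read moves the level by several hundredths.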

Other observations

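Of the 54 member events that the quasi-binomial test called between P635L Ctr and WT Ctr, 32 were also called by edgeR. Among the genes called by the former alone were Mlip and Trdn, described above, and Nexn, Map4, Aldoa and Tnxb. Between the mutant groups this test called 36 events, among them the 5 that edgeR called, and its further genes included Camk2d, Pcnt, Ppa2, Ndrg2, Mlip, Nebl and Trdn.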
